A study of Mus musculus with 18 samples.

Results

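The regions described here are genomic intervals where a peak of the transcription factor ATF4 was called in exactly 2 of 4 peak lists from mouse neurons given 2-deoxyglucose (2-DG), and in 0 of 4 lists from untreated neurons. They were chosen by those calls. Distinct peak intervals on chromosomes 1 to 19 and X were merged over the 8 lists wherever they shared at least 1 bp, and 2376 of 35717 merged regions (6.65%) met the rule. The mirror rule, exactly 2 control lists and 0 2-DG lists, was met by 549 regions (1.54%). Both counts follow from the rule, so they are given as a description without a test. Described below are the pair of lists that held a region, the strength of its peaks and its location. The sequence of its promoters and its recurrence in lists outside the rule are described too. Pairs and peak strengths come from the same calls that the rule used, so they are not independent of it.

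The study mapped ATF4 by chromatin immunoprecipitation and sequencing (ChIP-seq) in primary immature neurons from mouse embryos of embryonic day 14, after 2 days in vitro. The control group was untreated, and the treated group received 10 mM 2-DG for 6 h. This sugar resembles glucose and is taken up and phosphorylated but not used further, and it disturbs glycolysis and the glycosylation of proteins. Peak lists exist for 10 of the 18 samples. Labels name the same treatment throughout for 8 of them, 4 in each group. The other 2 lists have titles and descriptions that name opposite treatments. They entered no group and are called here the list titled 2-DG (described as control) and the list titled control (described as 2-DG).

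Several features of the samples limit what a region can show. The labels give neither strain nor genotype, and nothing in them ties a list to a separate culture, so the spread between lists may be technical. The design text speaks of 3 independent replicates, against the 4 lists used per group. Replicate numbers used below follow the order of the samples within a group and do not come from the labels. For control samples the antibody label reads none, whereas the design text names the ATF4 antibody for both groups. An effect of 2-DG and a difference in antibody therefore cannot be told apart in any control-free region. Peak lists hold no expression values, so the labelled cell type was not checked against its markers.

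ATF4 is a basic leucine zipper transcription factor and the main effector of the integrated stress response, in which cells slow general protein synthesis while the ATF4 messenger RNA is translated more. It binds DNA as a heterodimer, often with a C/EBP protein, at a composite site called the C/EBP-ATF response element (CARE). Its known targets include genes of amino acid uptake and synthesis, transfer RNA charging, redox defence and apoptosis. In neurons it is known both for adaptive responses to stress and for a part in cell death.

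Promoter sequences show what a region of this kind can look like at the level of bases. RefSeq promoter windows (build GRCm38.p6, for which mm10 is another name) run from 250 bases before to 50 after an annotated gene start, and 52 of the regions touched 63 of them. A CARE match was counted where the letters TGATGNAA occurred on either strand, N being any base. Matches were found in 14 of the 63 windows, belonging to 13 regions. Shown here are 30 bases around the match for the 6 protein-coding genes among them and for the lone match outside the pair of 2-DG replicates 1 and 2, Alkbh3os1. Each runs 5′ to 3′ on the strand of its gene, with the match in capitals. TTGCATCA, TTACATCA and TTTCATCA are matches read on the opposite strand.
Fancl, chr11:26386935-26386964, plus strand: cagctttggagTTGCATCAgtcttcaatga
Vrk1, chr12:106030618-106030647, plus strand: aaacgaggttaTTGCATCAtttgctgagaa
Gtpbp4, chr13:8996103-8996132, minus strand: cattcaggaaaTGATGTAAcgcttgagtcc
Hrk, chr5:118169639-118169668, plus strand: cccgggccggaTGATGTAAccccctccccg
Nop14, chr5:34660109-34660138, minus strand: tgggcgtggttTTACATCAgcatcctatgc
Cyb5r2, chr7:107758003-107758032, minus strand: actgccggatgTTTCATCAtccccaccatc
Alkbh3os1, chr2:93979858-93979887, plus strand: atgtgtttttaTGATGCAAaaaggggcaac

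The 8-letter match was thus present in 22.2% of the touched promoter windows (14 of 63, exact binomial 95% interval 12.7 to 34.5), against 3.87% of all 32619 windows in the table. The narrower letters TGATGCAA, the case in which N is C, were in 11.1% (7 of 63), against 0.880% of all windows. Other bZIP letters were in few windows, and their intervals take in the share of all windows. TGACGTCA, the cyclic AMP response element, was in 2 of 63 windows (3.17%, interval 0.387 to 11.0, against 1.80% of all), which are the opposed promoters of Lrrc8a and 1700084E18Rik and share 1 match. That interval is too wide to tell whether a contrast like that of CARE is present. TGANTCA, the AP-1 site, was in 3 of 63 (4.76%, interval 0.993 to 13.3, against 7.85%). These letters do not overlap in definition except that TGATGCAA is part of TGATGNAA, and a match is a description, not a shown binding site. Windows of neighbouring or repeated starts share bases, so the intervals, which cover counting error only, are too narrow. Promoters of chromosome 18 and of genes without an entry in the table were not analysed here.

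Within a region, the CARE match lay close to the summit, the base where the peak is highest. All 13 matches were inside their region, and in 11 of 13 the nearer of the 2 lists' summits was within 50 bp of the middle of the match, with a median of 22.5 bp. For control-free regions in exactly 1, 3 and 4 2-DG lists the medians were 26.5, 12.5 and 14.5 bp, so this closeness is not particular to 2 lists. The nearer summit was taken, and no distance to other sequence was computed for comparison. At Gtpbp4, which encodes a GTPase of ribosome assembly, the summits were 2.5 and 1.5 bp from the match, and the fold was 5.57 in 2-DG replicate 1 and 4.98 in 2-DG replicate 2. Vrk1, the gene of a nuclear serine-threonine kinase, had folds of 5.88 and 7.11 in the same lists, with summits 16.5 and 45.5 bp away. Fancl, which encodes the ubiquitin ligase of the Fanconi anaemia pathway, had folds of 10.5 and 4.27. Its match began at position -138 relative to the annotated start. Hrk, a gene of the pro-apoptotic BH3-only family, had a fold of 3.40, the lowest value in the list of replicate 1, and 7.11 in replicate 2. Nop14, a gene of small ribosomal subunit assembly, and Cyb5r2, a cytochrome b5 reductase gene, had their match 21 and 11 bases after the annotated start, with folds of 8.35 and 4.62 and of 5.57 and 4.62. All of these promoter regions were of 2-DG replicates 1 and 2, so by the rule none had a call in replicate 3 or 4. The region of Alkbh3os1, an antisense transcript, had folds of 5.26 in replicate 1 and 4.65 in replicate 4.

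The regions were unevenly divided over the 6 possible pairs of 2-DG lists. Replicates 1 and 2 together held 1651 of the 2376 (69.5%, exact binomial 95% interval 67.6 to 71.3). Replicates 1 and 4 held 312, replicates 1 and 3 held 214, replicates 2 and 4 held 82, replicates 3 and 4 held 61 and replicates 2 and 3 held 56. Replicate 1 thus took part in most regions, and replicate 3 in the fewest, with 331. The lists also differ in length: control replicates 1 to 4 held 3461, 3784, 8202 and 6811 peaks, and 2-DG replicates 1 to 4 held 15240, 7369, 6371 and 5856. Regions of this kind took up 14.3% of the peaks of 2-DG replicate 1, 24.3% of replicate 2, 5.20% of replicate 3 and 7.79% of replicate 4. The pair of replicates 1 and 2 alone made up 10.8% of the first list and 22.4% of the second. Without replicate 1, 988 regions were in exactly 2 of the remaining 3 lists and no control list, and without replicate 2 there were 1364.

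Set beside all 28 pairs of the 8 lists, replicates 1 and 2 stood alone. Regions called in exactly 2 of the 8 lists, both of them control lists, numbered 43 to 202 per pair over 6 pairs (median 76). For the 16 pairs of a control with a 2-DG list the range was 33 to 401 (median 100), the highest being 401 for control replicate 4 with 2-DG replicate 1. The other 5 pairs of 2-DG lists, at 56 to 312 regions, lay inside that mixed range, and the pair of replicates 1 and 2, at 1651, lay far above it. Replicate 1 with replicate 4 gave 312 regions, while replicate 1 with control replicate 4 gave 401. These pairs share lists and differ in list length, so they are compared as a description.

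**Figure D1:**
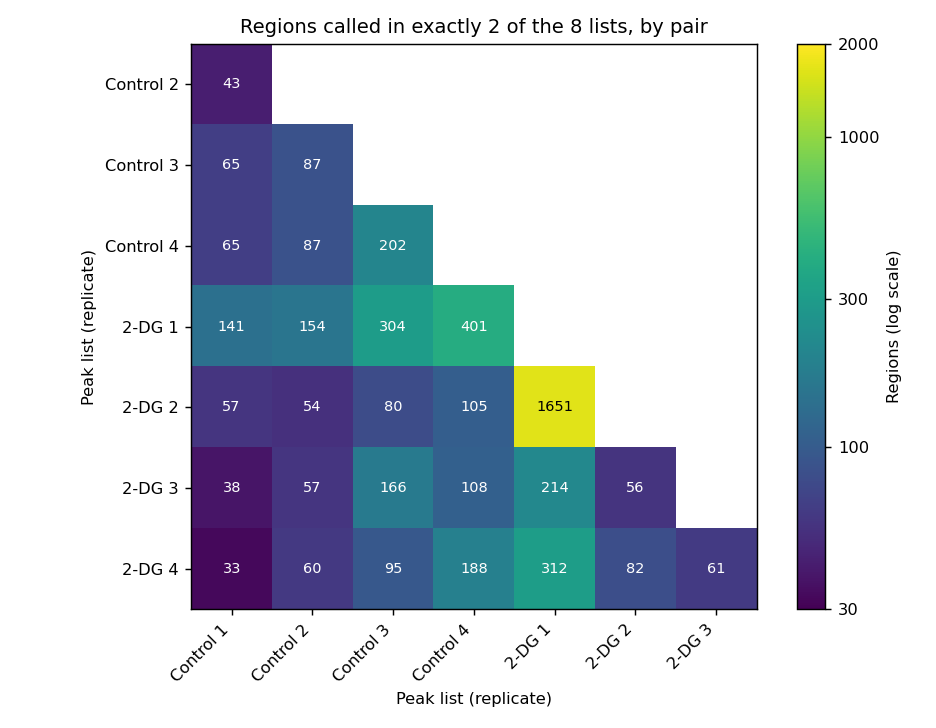
Number of merged regions called in exactly 2 of the 8 peak lists, for each of the 28 pairs of lists (rows and columns are lists; colour is on a log scale). The cell of 2-DG replicates 1 and 2 holds 1651 regions, and the other 27 cells hold 33 to 401.

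Peak strength in the deposited lists could be read more finely than a fold. In every row of the 8 lists, the authors' fold equalled a whole number plus 1, divided by a background plus 1, with a single background for the whole list (whole within a tolerance of 0.05). The authors' p-value was in every row the upper Poisson tail of that whole number at that background. The whole number is called the pileup here, the count of overlapping fragments at the summit. The background, the fragments expected at any base, was 2.23, 1.81, 1.04 and 2.01 in 2-DG replicates 1 to 4, and 1.75, 1.73, 1.14 and 1.83 in control replicates 1 to 4. The lowest pileup that was called was 10, 9, 7 and 10 in the 2-DG lists and 9, 9, 7 and 9 in the control lists. A site with fragments under these pileups goes uncalled, so a missing call does not show that none were there. Among the 2-DG lists, replicate 1 had the highest background and took part in the most regions. Replicate 4 had a higher background than replicate 2 and took part in fewer. Whether coverage has a part in the pairs was not tested.

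Most peaks in these regions were low but not at the limit. In 2-DG replicate 1 the 2177 regions had a median fold of 5.26 and a median pileup of 16, and 144 of them (6.61%) were at the lowest pileup of the list. In replicate 2 the medians were 4.62 and 12 over 1789 regions, with 11.8% at the lowest pileup. In replicate 3 they were 4.89 and 9 over 331 regions, with 21.8% at the lowest, and in replicate 4 they were 4.31 and 12 over 455 regions, with 16.3%. Ranked within its own list, the median peak was at the 69.3rd percentile of fold in replicate 1 but at the 33.4th in replicate 4. Regions of replicates 1 and 2 were the stronger ones in replicate 1, with a median pileup of 17, against 13 for its regions shared with replicate 3 or 4.

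Peaks were stronger where more 2-DG lists held a region, and the regions with 2 lists lay between their neighbours on either side of the rule. In replicate 1 the median pileup was 12, 16, 26 and 55 for control-free regions in exactly 1, 2, 3 and 4 of the 2-DG lists. In replicate 2 it was 10, 12, 17 and 35. In replicate 3 the same medians were 8, 9, 9 and 11, and in replicate 4 they were 12, 12, 14 and 22. Strength decides what is called, so these values are given without a test. Replicate 3 did not separate regions with 2 lists from those with 3 by these medians, and replicate 4 did not separate them from those with 1. Median percentiles of fold for 1, 2 and 3 lists were 31.6, 49.5 and 49.5 in replicate 3. In replicate 4 they were 33.4, 33.4 and 56.8. Median widths were 133, 235, 325.5 and 484 bp over the same 4 classes, and a region with more peaks in it is wider by construction. The number of regions in these classes was 14847, 2376, 808 and 616.

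**Figure D2:**
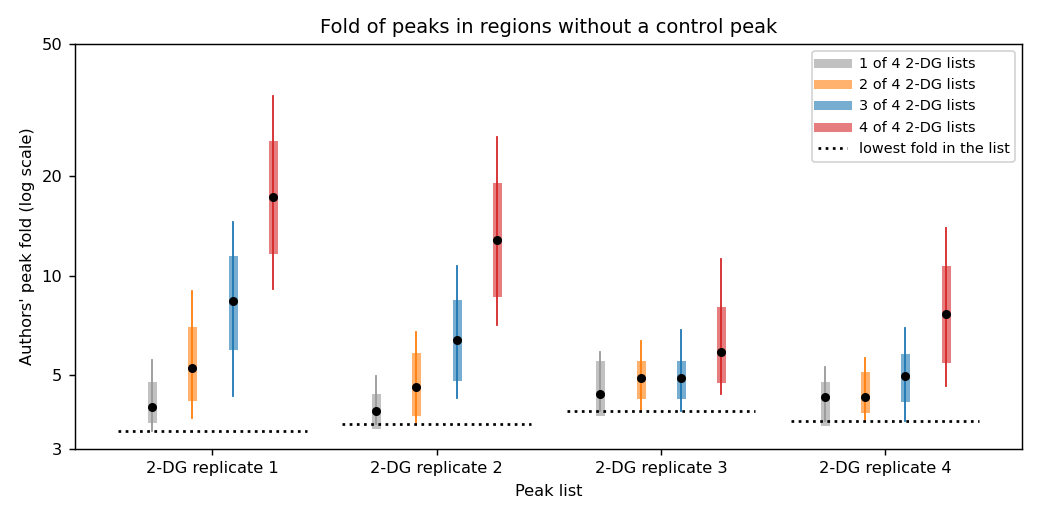
Authors' peak fold (log axis) in the 4 2-DG lists for regions in exactly 1, 2, 3 or 4 of these lists and 0 control lists; black points are medians, thick bars the quartiles and thin lines the 10th to 90th percentile of regions, and dotted lines the lowest fold of the list. In replicate 1 the median rises from 4.02 through 5.26 and 8.35 to 17.3, and in replicate 4 it is 4.31, 4.31, 4.98 and 7.63.

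The 2 summits of a region were usually near each other. Their distance had a median of 36 bp and was at most 50 bp in 1514 regions (63.7%). In the pair of replicates 1 and 2 the median was 32 bp, and 68.1% were within 50 bp. In the other 5 pairs the medians were 43 to 49.5 bp. Peaks of a region must share bases, so closeness is partly built in by the rule. In control-free regions of 3 and 4 2-DG lists, the outermost summits had median distances of 48 and 44 bp, so closeness is not particular to 2 lists. Merging by summits within 250 bp, in place of 1 shared bp, gave 2430 regions.

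Regions of this kind lay mostly away from gene ends. Of the 2376, 198 (8.33%, interval 7.25 to 9.52) were within 2000 bp of either end of a protein-coding gene, 953 (40.1%) were elsewhere inside such a gene and 1225 (51.6%) were between genes. Gene ends took 6.63% of regions in 1 2-DG list, 13.2% of those in 3 and 17.7% of those in 4, so that the regions with 2 lists were nearer to those with 1. Placing regions by their middle, which does not depend on width, gave 6.40%, 8.16%, 12.9% and 17.2%. In the mirror set of 549 control regions the share at gene ends was 9.29%, within the interval of the 2-DG regions. Starts could be told from other ends through the promoter table: of 188 gene-end regions off chromosome 18, 109 were within 2000 bp of a listed start and 79 were not. Without regard to gene ends, 5.59% of the regions were that near to a listed start, against 3.64%, 10.6% and 15.9% of those in 1, 3 and 4 lists, and 5.05% of the mirror set. Exons, introns and untranslated parts could not be assigned, since the gene table gives outer ends alone. The regions were spread over all 20 chromosomes, with 5.46% (chromosome 7) to 7.99% (chromosome 3) of the merged regions of each.

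Promoter sequence was compared over the same 4 classes. CARE letters were in 19.3% of the promoter windows touched by regions in 1 list (29 of 150), in 22.2% for 2 lists, in 29.3% for 3 (17 of 58) and in 34.5% for 4 (20 of 58). Neighbouring intervals overlap: 13.3 to 26.6, 12.7 to 34.5, 18.1 to 42.7 and 22.5 to 48.1. All 4 intervals lie above the 3.87% of all windows. Overlap of intervals does not decide whether the classes differ, and the rise over the 4 classes was not tested. Counted by region, the share of promoter-touching regions with the letters also rose at each step, from 19.5% for 1 list to 40.4% for 4. The narrower letters TGATGCAA gave no such order, at 14.0%, 11.1%, 10.3% and 17.2% for 1, 2, 3 and 4 lists. TGACGTCA was in 1.33%, 3.17%, 6.90% and 1.72% of the windows of these classes. The interval for 3 lists, 1.91 to 16.7 on 4 of 58 windows, lies above the 1.80% of all windows. Regions of the mirror set touched 4 windows and none held the letters, which allows a share of up to 60.2%. Within the rule, 13 of the 14 windows with a match belonged to the pair of replicates 1 and 2, which also had 56 of the 63 touched windows. Pairs without replicate 1 touched 0 windows.

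**Figure D3:**
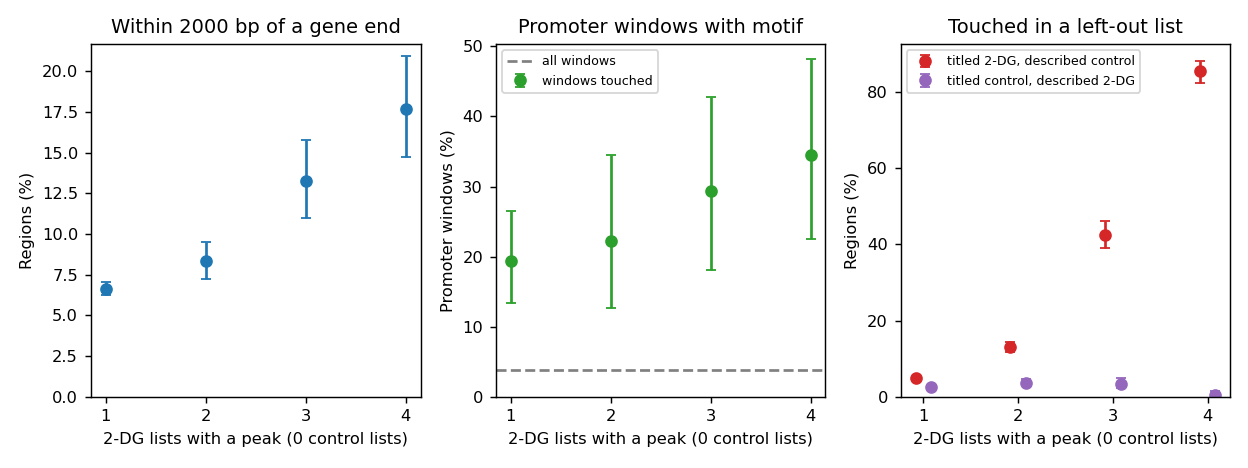
Share (%) of regions within 2000 bp of a gene end (left), of touched promoter windows with the CARE letters (middle, dashed line 3.87% of all windows) and of regions touched in the 2 lists with opposite labels (right), by the number of 2-DG lists with a peak and 0 control lists; bars are exact binomial 95% intervals. Gene ends go from 6.63% to 17.7%, promoter windows from 19.3% to 34.5% and the list titled 2-DG from 4.92% to 85.6%.

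Lists that played no part in the rule held few of these regions. The list titled 2-DG (described as control) touched 311 of them (13.1%, interval 11.8 to 14.5), and the list titled control (described as 2-DG) touched 88 (3.70%, interval 2.98 to 4.54). For regions in all 4 2-DG lists the same shares were 85.6% and 0.487%, and for regions in 1 list 4.92% and 2.55%. The mirror control regions were touched in 17.7% and 13.5%. Few of the overlaps were strong: with a −log10 q of at least 5 required in the outside list, the shares were 1.47% and 0.800%.

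The same question was put to the 8 lists in turn, by leaving out a list of each group, keeping regions with exactly 2 of the remaining 3 2-DG lists and none of the remaining 3 control lists, and reading the left-out lists. 2-DG replicate 1 held 78.2% of the regions defined without it, replicate 2 held 54.1%, replicate 4 held 25.9% and replicate 3 held 8.64%. These are means over the 4 choices of the left-out control list, which gave 76.7% to 79.6% for replicate 1 and 8.03% to 9.24% for replicate 3. Left-out control replicates 1 to 4 held 3.17%, 3.40%, 6.92% and 11.1% on average. Control replicate 4 held 7.59% to 15.0% according to which 2-DG list was left out with it, a range that takes in the 8.03% to 9.24% of 2-DG replicate 3. The 8 shares are over different sets of regions. The 13.1% of the list titled 2-DG lay between 2-DG replicates 3 and 4 and inside the range of control replicate 4, but its regions were defined from 4 lists a group and not 3.

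The pair of replicates 1 and 2 differed from the other 5 pairs in its surroundings. Of its regions 8.66% (interval 7.35 to 10.1) lay within 5000 bp of a region with a control peak. The share was 18.9% for replicates 1 and 4, 17.3% for 1 and 3, 36.6% for 2 and 4, 36.1% for 3 and 4 and 30.4% for 2 and 3. None of these 5 intervals reaches that of replicates 1 and 2, the nearest being 12.5 to 23.0. The list titled control touched 1.51% of the regions of replicates 1 and 2 and 6.09% to 15.9% of those of the other pairs. The list titled 2-DG touched 10.8% and 15.0% to 27.9%. For these lists some intervals overlap. In the list titled 2-DG, replicates 1 and 2 (9.33 to 12.4) overlap with 1 and 3 (10.5 to 20.4) and with 2 and 3 (11.6 to 34.4). In the list titled control, replicates 1 and 2 (0.982 to 2.23) overlap with 2 and 3 (1.98 to 17.3). Thus the pairs without replicate 1 had control peaks nearby most often. In all, 308 regions (13.0%) were this close, and of the 2068 others 1508 were in replicates 1 and 2. What sets the pairs apart was not tested.

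**Figure D4:**
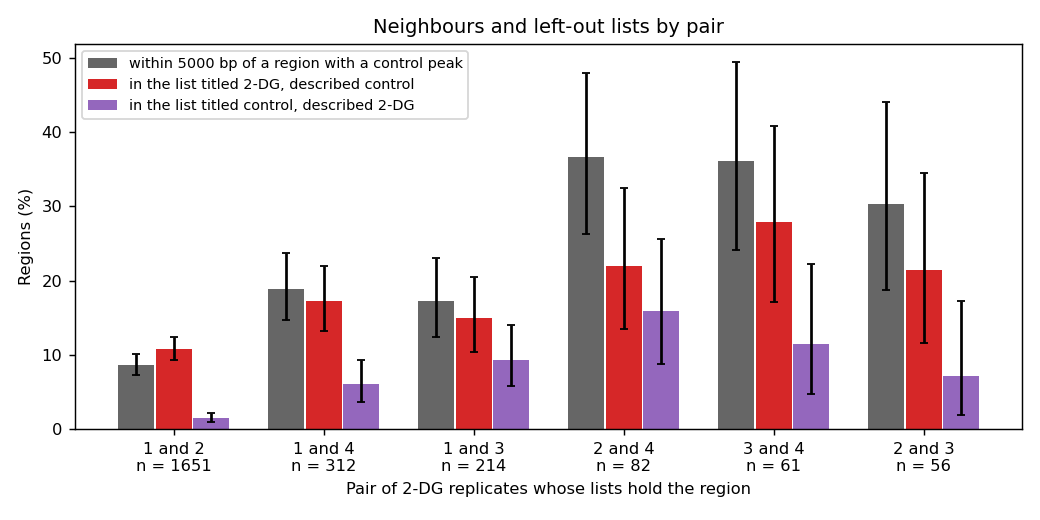
Share (%) of regions within 5000 bp of a region with a control peak, and touched in the 2 lists with opposite labels, for each pair of 2-DG replicates (n is the number of regions; lines are exact binomial 95% intervals). The pair of replicates 1 and 2 has the lowest value of all 3 measures, at 8.66%, 10.8% and 1.51%.

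The strongest single regions, ranked by the lower of their 2 within-list percentiles of fold, illustrate the difference. First was chr9:3027438-3027565, called in replicates 3 and 4 with folds of 26.9 and 25.5 (pileups 54 and 76). It lay near the low-coordinate end of chromosome 9, 307666 bp from the nearest coding gene, Alkbh8, and 1822 bp from a region with a control peak. The first of replicates 1 and 4, chr9:3011736-3011879, was in the same stretch, with folds of 7.73 and 7.96. The first of replicates 2 and 4, chr17:3076819-3076938, with folds of 7.47 and 9.95, was 100 bp from a region with a control peak and was called in both lists with opposite labels (folds 11.3 in the list titled control and 14.2 in that titled 2-DG). At Duxf3, a repeated homeobox gene, the region of replicates 3 and 4 (folds 6.36 and 8.30) was 222 bp from a control region and was also in both of those lists. The first of replicates 2 and 3, chr4:31354172-31354281, had folds of 6.40 and 11.2, and the nearest control region was 141344 bp away. That distance was 1515 bp for the first of replicates 1 and 3, inside Tmem267. It was 743 bp for the second region of replicates 2 and 4, and 13603 bp for the second of replicates 3 and 4. For the second regions of replicates 1 and 4, 1 and 3, and 2 and 3 it was 31691, 75863 and 67259 bp. Whether any of these regions lies in repeated sequence was not tested. The labels do not say how reads that match more than 1 place were handled.

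The highest regions inside genes were called in replicates 1 and 2, and 5 are given here. Alcam, which encodes a cell adhesion molecule of growing axons, held chr16:52358378-52358704, with folds of 17.0 and 12.4 and a fold of 4.51 in the list titled 2-DG. Vps8, a gene of endosomal transport, held a region with folds of 10.5 and 12.8. Ntn1, which encodes the axon guidance cue netrin 1, had folds of 9.59 and 11.0 at chr11:68366585-68366891. Nrxn3, which encodes the synaptic adhesion protein neurexin 3, had 13.9 and 10.7, and Adgrg6, an adhesion receptor gene, 13.0 and 10.7. Regions in Dnah7a and Ptprn2, also of replicates 1 and 2, tied with these last 2 in rank and came after them by fold. The summits of these 5 regions were 6 to 35 bp apart, and the nearest region with a control peak was 19160 to 99909 bp away. By the rule, no peak was called there in replicates 3 and 4.

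At gene ends, the 10 highest regions of the ranking were at Gm39701, Dsc3, Spink5, Fam43a, Dclk2, Cep162, Rgs13, Duxf3, Ube2r2 and Usp2. Apart from Duxf3, all were called in replicates 1 and 2. Dclk2, a doublecortin-like kinase gene of neurons, had folds of 14.2 and 8.18. Cep162, a gene of the primary cilium, had 14.5 and 7.83. Rgs13, a regulator of G-protein signalling, had 6.80 and 7.83, and its region touched the gene's promoter window, which held no CARE letters. Usp2, a deubiquitinase gene, had 9.28 and 7.11, with a control region 892 bp away. Among the 39 coding genes whose promoter window was touched were also Rab7, a late endosome GTPase gene (folds 7.73 and 6.05), Mff, a mitochondrial fission gene (5.26 and 6.05), and Myt1, a neural zinc finger gene (10.2 and 5.69), which are named after their values were seen. None of these windows held the letters.

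A minority of genes of the ATF4 programme had such a region, in some cases as a further site at a gene with a stronger one. Over all coding genes, 223 of 21627 (1.03%) had such a region within 2000 bp of an end, and 1031 (4.77%) had one at an end or inside. Of 33 listed ATF4 targets, 4 had one at an end (12.1%) and 1 more inside. At Vegfa, the vascular growth factor gene, the folds were 6.19 and 7.11 in 2-DG replicates 1 and 2, at chr17:46030199-46030799. Cth, which encodes the cysteine-forming enzyme cystathionine gamma-lyase, had 7.73 and 6.76 with both summits on the same base. Neither gene had another region in the 8 lists. Herpud1, a gene of endoplasmic reticulum protein degradation, had 8.04 and 6.05 at a site 851 bp from a region of 1 control list and all 4 2-DG lists (folds 76.4, 62.6, 23.5 and 29.2). Stc2, the stanniocalcin 2 gene, had 3.71 and 4.98 at a site 1882 bp from a control-free region of all 4 2-DG lists (15.2, 12.8, 6.85 and 5.97). Inside Nfe2l2, the gene of the antioxidant regulator NRF2, replicates 1 and 4 had folds of 12.4 and 4.98.

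Aminoacyl-tRNA synthetases, the enzymes that load transfer RNAs, had the highest share of the listed groups. Of 20 cytosolic synthetase genes, 4 had a region at an end and 2 inside, 30% in all, against 4.77% of coding genes. At 5 of these 6 genes a different region was called in all 4 2-DG lists, each with at least 1 control list. Iars had folds of 4.33 in replicate 1 and 5.38 in replicate 3 at a site 140 bp from a region with folds of 87.8, 79.7, 39.1 and 36.2 that was also in all 4 control lists. Yars, in replicates 2 and 3, had 3.56 and 5.38 at 89 bp from a region with 46.4, 37.0, 19.1 and 22.2 that was also in 1 control list. Eprs had 13.0 and 7.47 in replicates 1 and 2, at 321 bp from a region with 10.2, 8.54, 5.38 and 9.95. The Sars and Tars sites were 18891 and 10050 bp from the stronger one. Farsb alone had no other region in a 2-DG list, with folds of 7.11 and 5.34 in a region that ended 21 bp inside the gene's listed start. Whether a peak this close to a strong one is part of it was not tested.

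**Figure D5:**
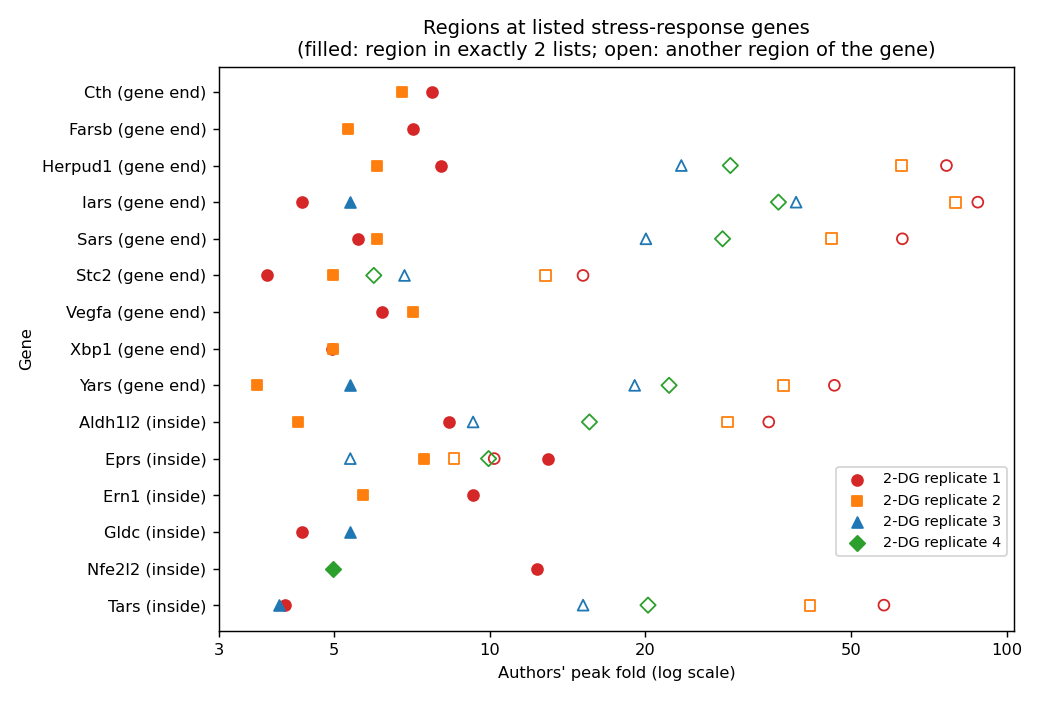
Authors' peak fold (log axis) at genes of the ATF4 target, synthetase, endoplasmic reticulum and serine or one-carbon lists: filled symbols are the region in exactly 2 2-DG lists and 0 control lists, open symbols the other region of the same gene called in the most lists, by 2-DG replicate. At Herpud1, Stc2, Iars, Sars, Tars, Yars and Aldh1l2 the open symbols lie above the filled ones of the same replicate, while at Cth, Vegfa, Farsb, Xbp1, Ern1, Gldc and Nfe2l2 there is no other region in a 2-DG list.

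A few listed genes of the response to unfolded protein had such a region. Xbp1, the spliced transcription factor of that response, had folds of 4.95 and 4.98 at an end, and Ern1, which encodes the IRE1 sensor that splices it, had 9.28 and 5.69 inside the gene. With Herpud1 they made 3 of 27 listed genes (11.1%, against 4.77% of coding genes). Among 19 serine, one-carbon and transsulfuration genes, Cth had a region at an end, and Aldh1l2 (8.35 and 4.27) and Gldc (4.33 and 5.38, replicates 1 and 3) had one inside. Together they were 15.8% of that list. Slc1a5, a glutamine transporter gene, had folds of 14.5 and 5.69 inside, the sole hit among 22 amino acid transporter genes (4.55%, near the 4.77% of all coding genes). Deptor, an inhibitor of mTOR kinase, held 2 regions, with folds of 8.97 and 7.47 and of 7.42 and 6.05 in replicates 1 and 2. Bbc3, the gene of the pro-apoptotic protein PUMA, had 7.42 and 3.91 at an end, and Rrm2b, a ribonucleotide reductase gene induced by p53, 5.57 and 4.27 inside. They were 2 of 13 listed cell-cycle and p53 genes (15.4%). The shares of 11.1%, 15.8% and 15.4% rest on 3, 3 and 2 genes and carry no interval, so they are not read as raised. Herpud1 and Cth were also counted among the ATF4 targets above. Egr4, an activity-regulated transcription factor gene, had 4.33 and 4.62 and was called in the list titled 2-DG (5.90). Atg16l1, of autophagy, had 6.50 and 4.98 just outside the gene. Hk1, of glycolysis, had 4.95 and 4.40 in replicates 1 and 3, and Gnpnat1, of amino sugar synthesis, 4.64 and 3.98 in replicates 1 and 4. Deptor was the sole hit among 24 listed genes (4.17%), Egr4 among 18 (5.56%) and Atg16l1 among 16 (6.25%). Hk1 was the sole hit among 22 (4.55%) and Gnpnat1 among 32 (3.1%). These shares, each from 1 gene, were near or below the 4.77% of all coding genes.

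Neuronal marker genes held such regions inside the gene in 6 of 23 cases (26.1%, against 4.77% of coding genes at an end or inside). At an end there was none in 23, where 1.03% of coding genes have one. The 6 were Snap25, Map2, Dcx, Rbfox3, Ncam1 and Gap43. Folds in Snap25, a gene of synaptic vesicle fusion, were 7.11 and 4.98, and in Dcx, the doublecortin gene of migrating neurons, 6.80 and 4.62. Gene length moved with this: the 6 had a median length of 179741 bp, the 23 one of 60408 bp and all coding genes one of 17330 bp. Its part in the count was not tested. Among 14 neurotrophin and receptor genes, Ntrk2, the TrkB receptor gene, had low folds of 4.02 and 3.65 in replicates 1 and 4, at 1044 bp from a control region, and Sorcs2, a sortilin-family receptor gene, had 5.26 and 4.62. These 2 were 14.3% of a list whose median gene length was 58852.5 bp. No region of this kind was at an end of or inside any of 10 astrocyte, 10 microglial, 10 oligodendrocyte, 10 vascular and 12 progenitor markers. Lists this short allow few hits at the 4.77% of all coding genes, so the zeros say little about these cell types. Over all 315 listed genes, 31 had one (9.84%, against 4.77% of all coding genes).

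Long genes recurred as hosts. The 815 coding genes with a region inside but away from their ends had a median length of 150528 bp. It was 159777.5 bp for genes hosting regions of all 4 2-DG lists and 93157.5 bp for those hosting regions of 1 list. A long gene offers more bases to hold a region, so long hosts follow in part from the measure. Each gene counts once, and the classes differ in size: 953 inside regions in 815 genes, against 275 in 258 for 4 lists and 5736 in 3212 for 1 list. The medians are therefore not like for like. At an end or inside, 891 genes had 1 such region, 110 had 2, 21 had 3, 6 had 4 and 3 had 5. The last were Nrxn3, Rbfox1, a neuronal splicing factor gene, and Sox5, a transcription factor gene of cortical neurons, with lengths of 1.61, 1.53 and 0.954 Mb. Of 1005 miRNA hairpins in the RefSeq table, 1 (Mir344d-1) was touched.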

How the data were processed

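Peak lists in narrowPeak form were deposited, called on mm10, with BWA, Picard, MACS2 and DiffBind named in the submitters' processing notes without versions. Each list gives the authors' score, the authors' fold (a ratio), a summit, and the authors' p and q values as −log10. Which tool made which step, read depth and fragment length are not given in the sources used here. The extraction text concerns RNA, and no chromatin protocol was at hand.

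Rows repeating an interval were reduced to distinct intervals at their highest summit. Intervals were merged over 8 lists at 1 shared bp, and placed on protein-coding genes of a RefSeq table (GRCm38.p6) by any overlap, ends of 2000 bp first. Group labels came from title, description and treatment. Motif letters were searched in RefSeq promoter windows. Shares carry exact (Clopper-Pearson) binomial 95% intervals, which cover counting error only; regions are not replicates, and no p-value was computed. The merging was checked on simulated lists, where 210 of 210 planted regions were recovered. Planted regions lay far apart and their peaks always overlapped, so close neighbours were not tried. The background was checked on separate simulated rows. Python 3.11.15 was used. The input samples were not used here.

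Named regions were ranked by the lower of the 2 within-list percentiles of fold: the first 2 of each pair, 10 at gene ends, 5 inside and 5 between genes, and up to 4 genes of each of 18 gene lists, with ties broken by the higher fold and then by position. Stc2, Tars, Yars, Ncam1 and Gap43, which complete their lists, the promoter matches, Rbfox1, Sox5, Dnah7a, Ptprn2 and Mir344d-1 fall outside this rule and were named after their values were seen. The members, gene lists and alternatives were chosen with earlier results of these data known.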

Additional observations from a re-analysis of the deposited data

Results flagged for a closer look

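In 11 screened groups of 4 lists, 2 held a list far from the other 3 of its group, where chance flags about 1 group in 20. 2-DG replicate 1 had 15240 peaks, with the other 2-DG lists at 5856 to 7369; it took part in 2177 of the 2376 regions. Control replicate 3 had a background of 1.14 fragments, against 1.73 to 1.83 in the other control lists; 2-DG replicate 3 had a like value of 1.04.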

How the results depend on the processing

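The count of regions (2376), the count in replicates 1 and 2 (1651) and the share at gene ends (8.33%) fell with stricter peaks for the counts and rose for the share. They were 1101, 935 and 11.6% at −log10 q of at least 5, 1021, 851 and 11.5% at fold of at least 5, and 889, 682 and 10.8% with 3461 peaks from each list. Ends of 500 bp gave 3.79% and of 5000 bp 14.6%. Leaving out a list in turn gave 988 to 2672 regions, 1681 to 2282 in replicates 1 and 2, and 8.08% to 12.0% at gene ends; the count for replicates 1 and 2 has no value without either of them. Without 2-DG replicate 1, 2 or 4 the share at gene ends was 12.0%, 10.7% and 9.95%. The shares touched in the lists titled 17 (control) and 18 (2-DG) were 0.800% and 1.47% at −log10 q of at least 5 there, in place of 3.70% and 13.1%. The cause was not tested, beyond fewer peaks or lists entering. The other settings moved counts by under 1.5 times and shares within their interval: −log10 q of at least 2, autosomes only, either use of the conflicting lists, summits within 250 bp, the middle of the region, and 3 alternatives chosen after seeing the data (the highest of the lists' lowest folds taken exactly or after rounding folds to 2 decimals, and distance from control peaks). No paired analysis was possible because the titles give the lists no shared replicate numbers. Titles do number a control and a 2-DG list in turn: 1 and 2, 5 and 6, 9 and 10, 13 and 14. Whether such lists were made together is not stated.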
